A study of Mus musculus with 16 samples.

Results

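Circulating miRNAs in the serum of male mice aged 8 weeks were set against those of male mice aged 4 weeks, the interval in which a mouse passes through puberty and completes most of its growth. The comparison rests on 8 of the 16 arrays of a series on serum miRNAs and ageing, chosen by their titles, with 4 mice at each age. No treatment, transgene or surgery is recorded for either age, and the strain is not given in the sources used here. Blood was drawn from the heart into serum separator tubes, total RNA was extracted, and 1 ng of it per mouse was labelled with Cy3, the single dye used. The labelled RNA was read on an Agilent array with probes for 1881 mouse miRNAs.

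A miRNA is a short RNA that, bound to an Argonaute protein, pairs with target mRNAs mainly through its seed, bases 2 to 8 counted from its 5′ end. Each is cut from a hairpin, whose strands are called the 5p and the 3p arm. In serum, miRNAs travel in vesicles, with Argonaute proteins and with lipoproteins. Most of them come from blood cells and platelets, with smaller amounts from liver, muscle, endothelium and other tissues. A serum level reflects release and clearance over the whole body, so that fewer cells of a type, less RNA per cell and a different release cannot be told apart here.

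The mature sequences below carry the main observations and are taken from RefSeq (mouse build GRCm38.p6), with the seed in capitals. The first 4 belong to miRNAs that were lower at 8 weeks and whose signals on the arrays of high background overlapped those on the others. Within each age miR-199a-3p was brighter on the arrays of high background, by 0.06 at 4 weeks and 0.42 at 8 weeks, and the others were dimmer. The mean log2 contrasts at 4 and 8 weeks were -0.78 and -0.98 for miR-140-3p. They were -1.15 and -2.58 for miR-214-3p, and -1.82 and -2.63 for miR-181b-5p. The next 3 belong to miRNAs that were higher at 8 weeks. The last 6 belong to miRNAs whose signal was highest on the arrays of high background, shown for their high content of cytosine.
miR-199a-3p: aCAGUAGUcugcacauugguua
miR-214-3p: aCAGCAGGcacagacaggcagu
miR-140-3p: uACCACAGgguagaaccacgg
miR-181b-5p: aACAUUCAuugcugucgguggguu
miR-423-5p: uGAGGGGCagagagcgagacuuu
miR-671-5p: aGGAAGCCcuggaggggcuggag
miR-7020-5p: uGGGAUGGuggagagggugaccag
miR-7020-3p: aACCCCUCucuucucucccag
miR-1894-5p: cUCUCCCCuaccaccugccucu
miR-7017-3p: aCCCUGCUccucucccuccag
miR-1943-3p: cAGGUGCCagcuccucccuuc
miR-7058-3p: cUCGUUCCuuccuuucuuccag
miR-3102-3p.2-3p: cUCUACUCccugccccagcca
Both arms of a hairpin are shown for miR-7020, at chr4:139644047-139644070 (5p, plus strand) and chr4:139644091-139644111 (3p), within the span of Aldh4a1. The sequence of miR-199a-3p is encoded at chr1:162217883-162217904 (plus strand), within Dnm3 and its opposite-strand transcript Dnm3os, and at chr9:21496498-21496519 (minus strand), within Dnm2. That of miR-214-3p lies in the same Dnm3 and Dnm3os span, at chr1:162223438-162223459 (plus strand). The 3p arm of miR-140 lies at chr8:107551288-107551308 (plus strand), within Wwp2. Mature sequences were matched for 211 of the 245 miRNAs tested.

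No miRNA passed correction between 8 and 4 weeks. Of 245 tested, 0 had an adjusted p under 0.05 (0.0% called; limma with Benjamini-Hochberg adjustment, smallest adjusted p = 0.637), and 5 had an unadjusted p under 0.05 (2.04%). Of those 5, miR-199a-3p and miR-199b-5p were lower at 8 weeks (0.816% of the tested), and miR-375-3p, miR-486a-5p and miR-5622-3p were higher (1.22%). The values of the ages did not overlap for 5 miRNAs that were lower at 8 weeks (2.04%), namely miR-199a-3p, miR-199b-5p, miR-140-5p, miR-30b-5p and miR-125b-5p. Nor did they for 3 that were higher (1.22%), namely miR-486a-5p, miR-423-5p and miR-5622-3p. The median log2 difference of all tested miRNAs was -0.13, and 138 of the 245 (56.3%) had a lower mean at 8 weeks. Among the 72 miRNAs present on every array, 46 (63.9%) were lower, and the median was -0.12. To be tested, a miRNA had to be called present by the scanner software in 3 or more mice of an age. Values below are log2 signals, scaled so that the 75th percentile of those 72 miRNAs is the same on each array.

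The number of miRNAs detected was 360, 279, 279 and 241 on the 4-week arrays (replicates 1 to 4) and 222, 219, 184 and 241 on the 8-week arrays. The SD of the negative-control spots, a measure of background, was 19.1 and 7.45 intensity units on 4-week replicates 1 and 4 and 3.54 on 8-week replicate 3, against 1.82 to 2.59 on the other 5 arrays. Feature Extraction marked 4-week replicates 1 and 4 for evaluation. The log2 of the 75th percentile signal before scaling was 8.61 ± 0.29 in the 4-week mice (SD, n = 4) and 7.72 ± 0.28 in the 8-week mice, and the ages did not overlap (2-sided exact permutation p = 0.0286, the smallest that the 70 assignments allow, adjusted p = 0.114 over 4 measures per array). Both ages lay on 1 slide, with the 4-week arrays in its first 2 columns and the 8-week arrays in the other 2, so that age and place on the slide cannot be told apart.

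The miRNAs with the smallest p among those lower at 8 weeks were led by members of the miR-199 and miR-140 families, which are known from cartilage, bone-forming mesenchyme and fibroblasts. Dnm3os, the transcript that carries miR-199a and miR-214, and miR-140 are both needed for normal skeletal growth in mice. The list of cartilage and fibroblast miRNAs has 12 members with probes, of which 9 were seen in some mouse and 6 were tested, and all 6 had a lower mean at 8 weeks. Their median log2 difference was -1.01, against -0.13 over all tested miRNAs. None of the 6 passed, and the list was drawn up with earlier results of these data known.

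For miR-199a-3p, the log2 signal was 6.43, 5.86, 6.06 and 5.61 at 4 weeks (replicates 1 to 4) and 4.83, 5.07, 4.98 and 3.80 at 8 weeks. Each 8-week mouse was below each 4-week mouse, with 8-week replicate 4 the lowest. The means were 5.99 ± 0.34 (SD, n = 4) and 4.67 ± 0.59, a log2 difference of -1.32 ± 0.45 (SE). It was -0.33 under quantile normalization, -0.26 with normexp background correction and 0.96 with the 75th percentile taken over all miRNAs. In limma the unadjusted p was 0.0175 and the adjusted p = 0.637, the same adjusted value as for each of the 20 miRNAs with the smallest p in either direction. The mature sequence of miR-199b-3p is the same, so that the signal may come from either gene. Its 2 probes gave differences of -1.35 and -1.31.

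The partner miR-199b-5p, cut from a hairpin of the same family, gave 5.48, 4.23, 3.97 and 4.04 at 4 weeks and 3.30, 3.20, 3.18 and 3.60 at 8 weeks. Here too the ages did not overlap, and 4-week replicate 1, a marked array, was the highest. The log2 difference was -1.11 ± 0.46 (SE), and -0.61 without the 2 marked arrays. Signals of miR-140-5p, an arm of a miRNA that is abundant in chondrocytes, were 6.96, 5.89, 6.10 and 6.07 at 4 weeks and 5.04, 5.79, 5.21 and 2.14 at 8 weeks. All 8-week values were below all 4-week values, and 8-week replicate 4, where it was not detected, was far below the rest. The difference was -1.71 ± 0.80 (SE), and -0.94 without that replicate.

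The other arm, miR-140-3p, had 7.61, 8.05, 8.14 and 7.02 at 4 weeks and 7.14, 6.64, 6.05 and 7.33 at 8 weeks. These ranges overlapped, with 2 of the 8-week mice above 4-week replicate 4. Its log2 difference was -0.91 ± 0.47 (SE). For miR-214-3p the values were 4.15, 5.45, 5.39 and 4.39 at 4 weeks and 5.19, 4.31, 2.13 and 4.65 at 8 weeks, a difference of -0.78 ± 0.72 (SE) between ranges that overlapped. The sixth member, miR-27b-3p, differed by -0.65 ± 0.46. Relative to the median of the tested miRNAs, all 6 members were lower as reported here, under each of 8 other ways of scaling or correcting the signal, and without the marked arrays. Rescaling whole arrays moves all miRNAs nearly alike, so those ways could hardly change this. The list's median relative to that of the tested was -0.88 as reported, with no scaling, with scaling to the median and with centring. It was -0.57 under quantile normalization, -0.25 with normexp and -1.24 with the deposited total signal. The list's median difference was -0.13 under quantile normalization, where 3 of 6 were below 0, and 1.27 with the 75th percentile taken over all miRNAs, where none was and the median of all tested miRNAs was itself 1.89.

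**Figure D1:**
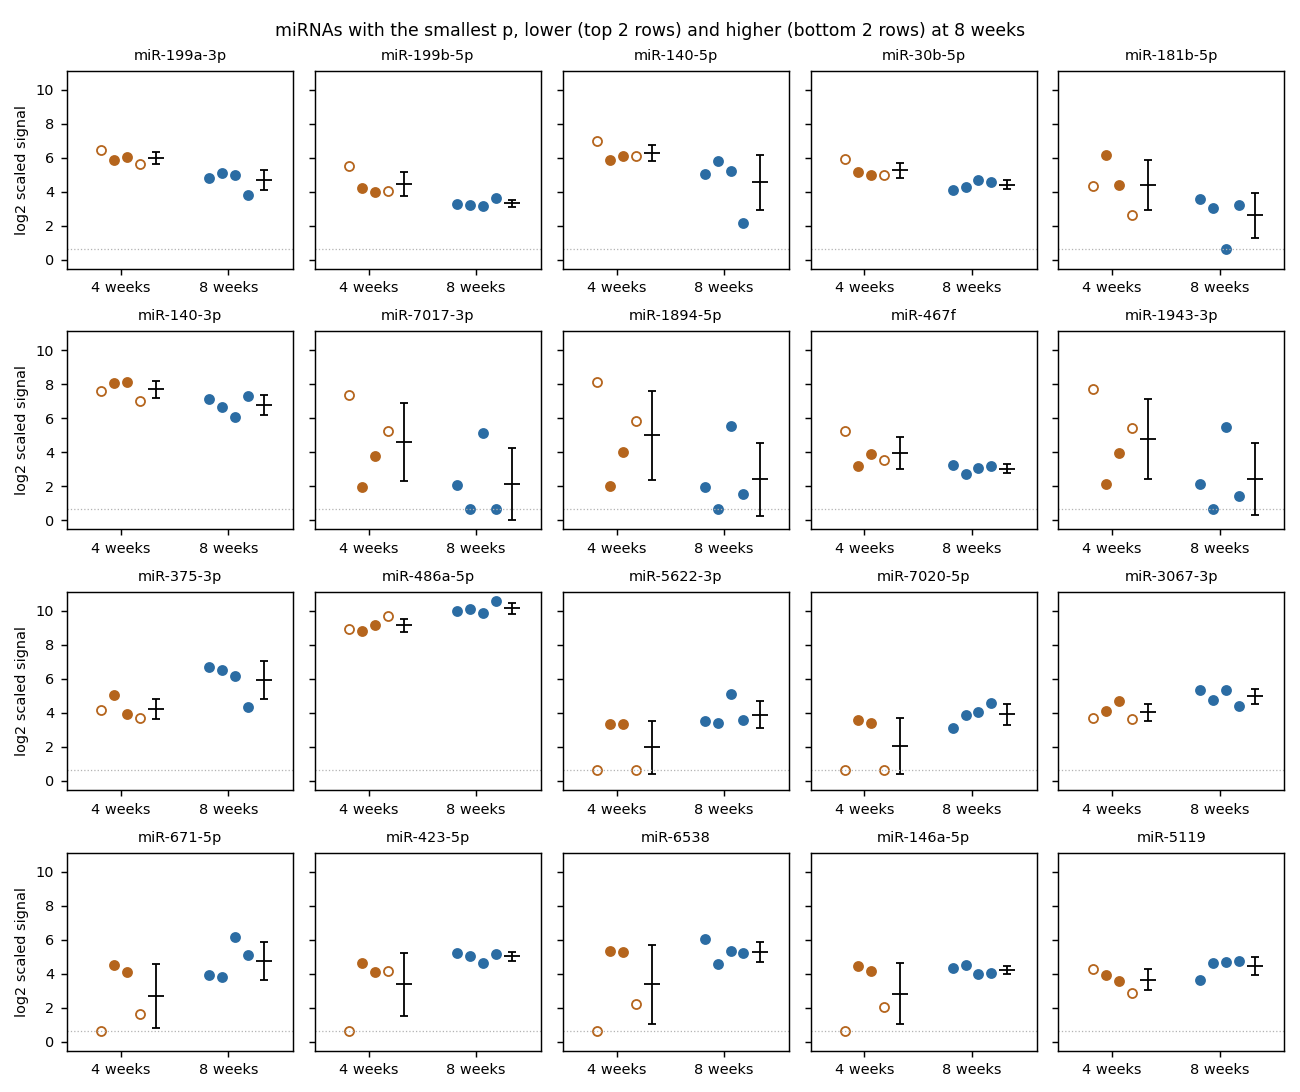
Log2 scaled signal (vertical axes) at 4 and 8 weeks of the 10 miRNAs with the smallest p among those lower at 8 weeks (upper 2 rows) and among those higher (lower 2 rows). Points are the 4 mice per age in replicate order, open points the 2 marked arrays, bars the mean ± SD, and the dotted line the floor of 0.64; miR-199a-3p and miR-486a-5p separate the ages, while miR-7017-3p, miR-1894-5p and miR-1943-3p are high on the same 3 arrays.

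Other blood and tissue miRNAs that were lower belong to the miR-30 and miR-181 families. For miR-30b-5p, a member of a broadly expressed family, the log2 signal was 5.91, 5.17, 4.99 and 4.99 at 4 weeks and 4.11, 4.26, 4.71 and 4.54 at 8 weeks. The ages did not overlap, and the difference was -0.86 ± 0.41 (SE), and 0.07 under quantile normalization. Its family did not share one direction, since 3 of 6 tested members were lower at 8 weeks and 3 were higher. The nearest relative by value was miR-30c-5p at -0.73, while miR-30d-5p stood at 0.34 and miR-30a-5p at 0.24.

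Levels of miR-181b-5p, a regulator of lymphocyte development and endothelial inflammation, were 4.35, 6.18, 4.41 and 2.60 at 4 weeks and 3.58, 3.02, 0.64 and 3.20 at 8 weeks. The value of 0.64 on 8-week replicate 3 is the floor given to signals too low to measure, and the ages overlapped. Its log2 difference of -1.78 ± 0.90 (SE) was -1.17 when 4-week replicate 2 was left out, -1.13 when 8-week replicate 3 was, and 0.06 under quantile normalization. The miRNA miR-181a-5p, which has the same seed (ACAUUCA), differed by -1.37 ± 1.01. These were the only tested miRNAs of the family's 10 on the array. No other miRNA among the 15 of the 20 with a matched sequence shared its seed with another of the 211 tested miRNAs that had one. The rest of the 245 could not be compared.

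The small difference of miR-125b-5p, a miRNA of many differentiated tissues, was measured with little spread. Its values were 8.44, 8.10, 8.05 and 8.03 at 4 weeks and 8.00, 7.91, 7.85 and 7.64 at 8 weeks. They did not overlap, but the step between the nearest mice was small and the difference of -0.30 ± 0.36 (SE) lay within the error of the fit. The SE of the fit draws on the spread of all tested miRNAs. The SDs of miR-125b-5p itself were 0.19 and 0.15 (n = 4 each). It was chosen for mention after its values were seen, as a count of 5 needed its name.

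Among the miRNAs that were higher at 8 weeks, the smallest p belonged to miR-375-3p, which is made in pancreatic islets and in endocrine cells of the gut and pituitary. Its log2 signal was 4.16, 5.06, 3.96 and 3.72 at 4 weeks and 6.72, 6.55, 6.16 and 4.34 at 8 weeks. The first 3 of the 8-week mice were above every 4-week mouse, and the last lay within the 4-week range. The scanner software called it present in 2 of the 4-week mice and in all 4 of the 8-week mice. The log2 difference was 1.72 ± 0.63 (SE), 3.28-fold in linear terms, with an unadjusted p = 0.0246 in limma. It was positive in each of 26 settings, from 0.82 with no scaling between arrays to 3.89. The other tested miRNAs of the epithelial, gut and pancreas list did not go with it: miR-192-5p stood at -0.32, miR-205-5p at -0.18 and miR-215-5p at -0.87, though all 4 were above 0 under quantile normalization.

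The second, miR-486a-5p, is an erythroid and muscle miRNA made from the Ank1 locus and one of the most abundant in red cells. It measured 8.92, 8.82, 9.18 and 9.70 at 4 weeks and 9.99, 10.12, 9.87 and 10.59 at 8 weeks. All 8-week mice were above all 4-week mice. The means were 9.16 ± 0.40 (SD, n = 4) and 10.14 ± 0.31, a log2 difference of 0.99 ± 0.40 (SE) or 1.98-fold (limma, unadjusted p = 0.0393). It was 1.31 without the marked arrays and 0.09 with no scaling between arrays. The 3p arm of its hairpin differed by 0.68 ± 0.85.

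The other red cell miRNAs did not show the same difference. The level of miR-451a, which is processed by Argonaute 2 without Dicer and marks red cells, was 12.40 ± 0.51 in the 4-week mice (SD, n = 4) and 12.01 ± 0.45 in the 8-week mice, with overlap. Its difference of -0.38 ± 0.45 (SE) and that of miR-16-5p, -0.49 ± 0.40, pointed the other way, while miR-92a-3p stood at 0.29 ± 0.42 and miR-25-3p at -0.08 ± 0.37. In the erythrocyte list 3 of 5 tested members were lower and 2 higher, and the median was -0.08. The log2 ratio of miR-451a to miR-23a-3p within an array, used as a sign of lysed red cells, differed by -0.46 (2-sided exact permutation p = 0.4, n = 4 each).

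Several of the miRNAs with higher means at 8 weeks were low on 1 or both of the marked 4-week arrays and differed less without them. Signals of miR-423-5p, an abundant plasma miRNA, were 0.64, 4.60, 4.12 and 4.13 at 4 weeks and 5.21, 5.06, 4.61 and 5.16 at 8 weeks. The ages did not overlap, but the value on 4-week replicate 1 is the floor. The difference of 1.64 ± 0.86 (SE) was 0.71 without that array. For miR-146a-5p, an NF-κB target in innate immune cells, the values were 0.64, 4.42, 4.14 and 2.03 at 4 weeks and 4.32, 4.53, 3.98 and 4.06 at 8 weeks. Replicates 2 and 3 at 4 weeks lay within or next to the 8-week range, and the difference was 1.42 with all arrays and 0.11 without the marked arrays. Taken singly, its 2 probes gave differences of 0.23 and 0.74 with all arrays, both below that of their average.

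The same held for miR-5622-3p, miR-7020-5p, miR-671-5p and miR-6538, whose functions in serum are little known. Each lay at the floor of 0.64 on 4-week replicate 1. Their differences were 1.92, 1.84, 2.04 and 1.92 with all arrays and 0.75, 0.59, 0.63 and 0.15 without the marked arrays, in the same order. Of the last 2 named by p, miR-3067-3p differed by 0.93 ± 0.45 (SE) and by 0.73 without the marked arrays, and miR-5119 by 0.78 ± 0.48 and 0.85. None of the ranges of these 6 was separate between the ages except that of miR-5622-3p, at most 3.34 at 4 weeks and at least 3.42 at 8 weeks. Taken singly, the 2 probes of miR-7020-5p gave 1.14 and 1.71, both below its 1.84, and the 3 of miR-5119 ran from 0.14 to 1.15.

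Many of the tested miRNAs had signals that set apart the 3 of the 8 arrays with the highest SD of negative-control spots. The SD of 3.54 on 8-week replicate 3 compares with 2.59 on the next array, and unmarked arrays of the other slide reached 4.45. The signal of the brighter class defined below mostly fell in the order of that SD, but not in proportion to it. It stood at 4.37 on 4-week replicate 1 (SD 19.1), 2.36 on 4-week replicate 4 (SD 7.45) and 2.25 on 8-week replicate 3. It was 0.65 on 4-week replicate 3 (SD 2.59) and from -1.25 to -0.76 on the rest (SD 1.82 to 2.03). The dimmer class stood at -2.61, -1.47 and -1.77 on the first 3 of these. The definition of the classes sets part of this order. Of 245, 70 were brighter on all 3 arrays of high background (4-week replicates 1 and 4 and 8-week replicate 3) than on any of the other 5, 51 were dimmer on all 3, and 124 overlapped. These classes were defined after the data were seen. Since 2 of the 3 arrays belong to 4 weeks, the class largely sets the direction between ages. All 70 of the first class had a lower mean at 8 weeks, with a median log2 difference of -1.96, and 48 of the 51 of the second had a higher one, with a median of 0.50. The median of the overlapping class was -0.04. Without the marked arrays the medians were 0.25 (over the 22 of the first class still tested) and -0.62 (all 51 of the second), the opposite signs. The only array of high background then left is 8-week replicate 3. The definition of the classes thus largely sets these signs too, and they are no separate observation. The part of the background in these differences was not tested.

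The definition of the classes fixes the sign of the contrast between high-background and other arrays, also within an age. Its median size in the first class was 3.49 on the log2 scale among the 4-week mice and 3.45 among the 8-week mice, and in the second class -2.82 and -2.33. An example of the first class is miR-1894-5p, with 8.14, 2.01, 4.03 and 5.83 at 4 weeks and 1.95, 0.64, 5.54 and 1.55 at 8 weeks. It was highest on the 3 arrays of high background, and its log2 difference between ages was -2.58 ± 1.47 (SE). The values of miR-7017-3p were 7.38, 1.97, 3.76 and 5.26 at 4 weeks and 2.06, 0.64, 5.15 and 0.64 at 8 weeks, in the same order of arrays. Those of miR-1943-3p ran from 2.12 to 7.71 at 4 weeks and from 0.64 to 5.47 at 8 weeks, with the same 3 arrays on top.

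**Figure D2:**
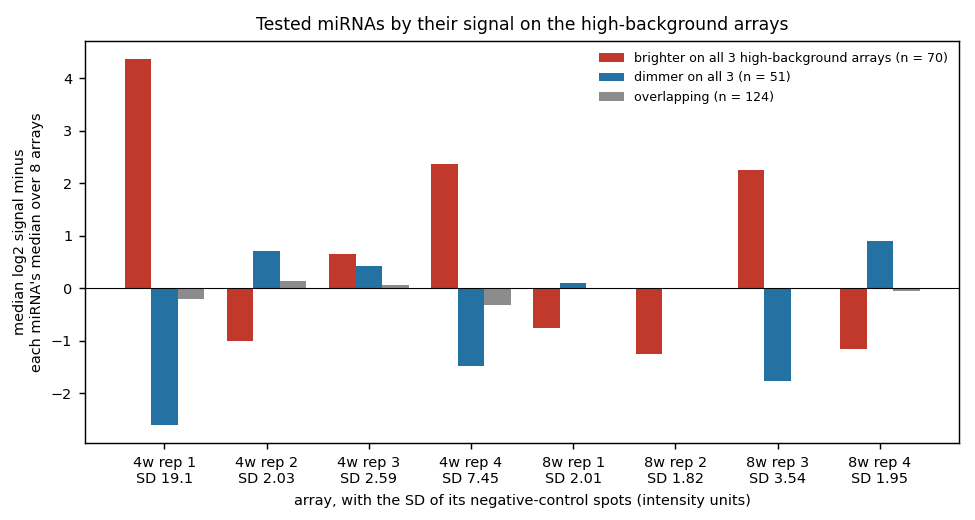
Median log2 signal of each class of tested miRNAs on each array, less each miRNA's own median over the 8 arrays (bars, vertical axis), with the SD of the negative-control spots under each array. The class brighter on high-background arrays stands at 4.37, 2.36 and 2.25 on 4-week replicates 1 and 4 and 8-week replicate 3, and the dimmer class at -2.61, -1.47 and -1.77 there.

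The 2 classes differed in base composition, which was not used to define them. Mature sequences of the brighter class averaged 44.4% cytosine and 13.0% guanine (63 with a sequence), and those of the dimmer class 15.2% cytosine and 43.4% guanine. The overlapping class held 20.6% and 33.2%. Printed above, miR-1894-5p is 59.1% cytosine and 4.55% guanine, miR-7017-3p 57.1% and 9.52%, and miR-7020-3p 52.4% and 4.76%. In contrast, miR-7020-5p is 8.33% cytosine and 54.2% guanine. Across the 211 tested miRNAs with a sequence, which share the same 8 arrays, the log2 difference between ages correlated with cytosine minus guanine content at Pearson r = -0.74 (Spearman rho = -0.75). The correlation was -0.52 among the 61 detected on all 8 arrays, -0.65 under quantile normalization and 0.23 without the marked arrays (167 miRNAs).

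**Figure D3:**
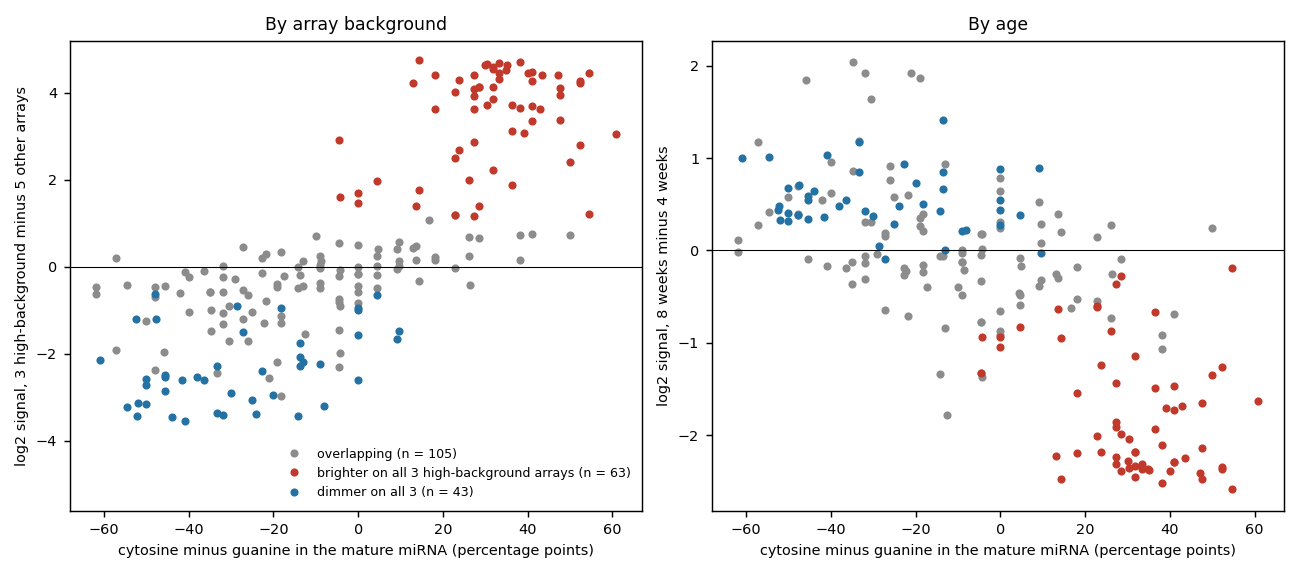
Each point is 1 of 211 tested miRNAs, placed by cytosine minus guanine content of the mature miRNA in percentage points (horizontal axes). Vertical axes give the log2 contrast of the 3 high-background with the 5 other arrays (left, Pearson r = 0.79) and the log2 difference of 8 from 4 weeks (right, r = -0.74), with colours for the classes.

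The arms of a hairpin come from 1 precursor, yet most pairs differed in opposite directions. Of 21 hairpins with both arms tested, 16 had arms of opposite sign, 3 had both arms lower at 8 weeks (let-7b, let-7d and miR-140) and 2 both higher (miR-30a and miR-486a). In 12 of the 16 the 5p arm was the higher one, and in 10 of these 12 the 3p arm was in the brighter class. The arms of miR-7020 stood at 1.84 (5p) and -2.14 (3p), those of miR-7011 at 1.01 and -2.10, and those of miR-1224 at 0.28 and -2.37. In miR-1894 the order was turned, with the 5p arm at -2.58 and the 3p arm at 1.01. There the 5p arm was in the brighter class and the 3p arm in the dimmer class. Of the 70 miRNAs of the brighter class, 50 were 3p arms and 38 were numbered 5000 or above, miRNAs catalogued late. Over all 245 tested these counts were 101 and 80.

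Detection at 1 age alone lay mostly on the same arrays. The 4-week arrays together detected 554 miRNAs, of which 237 were seen on no 8-week array. Of those 237, 212 were seen on the 2 marked arrays alone, and 144 of them on 4-week replicate 1 alone. In the other direction, 18 were detected at 8 weeks only. Detection on at least 3 arrays of an age and on none of the other was found for 3 miRNAs at 4 weeks and for 1 at 8 weeks.

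The 3 were miR-7058-3p, miR-7020-3p and miR-3102-3p.2-3p, all in the brighter class and with the cytosine-rich sequences given above. At 4 weeks miR-7058-3p measured 7.04, 1.59, 3.47 and 4.94, and at 8 weeks 2.03, 0.87, 4.77 and 0.64. Its signal on 8-week replicate 3, where it was not detected, was above that on 4-week replicate 3, where it was. Each 4-week mean was set against the higher of the lowest detected signal and the miRNA's own signal on each 8-week array. It was 4.54-fold higher for miR-7058-3p, 4.30-fold for miR-7020-3p and 3.14-fold for miR-3102-3p.2-3p. For miR-7058-3p and miR-3102-3p.2-3p the lowest detected signal was nowhere above the value used. Their ratios are therefore plain differences of means after flooring and not lower limits set by detection. The value of miR-7058-3p on 8-week replicate 4 is the floor of 0.64, so its ratio still depends on that floor. In the same order the 3 ratios were 2.39-fold, 2.16-fold and 1.66-fold without 4-week replicate 1. They were 8.41-fold, 8.67-fold and 5.62-fold without 4-week replicate 2. Without 8-week replicate 3 they were 8.45-fold, 7.76-fold and 5.18-fold. Without both marked arrays they were 1.37-fold for miR-7058-3p, 1.17-fold for miR-7020-3p and 0.99-fold for miR-3102-3p.2-3p. The 1 miRNA detected on at least 3 arrays at 8 weeks and on none at 4 weeks was miR-486b-3p. It measured 1.96, 3.21, 0.64 and 2.58 at 8 weeks and 0.64 to 2.26 at 4 weeks, which overlapped. The same ratio, with the ages exchanged, was 0.83-fold, so its 8-week mean was not above the limit of detection at 4 weeks.

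The lists of tissue and family miRNAs were described by counts, and none of their members passed. All 6 tested cartilage and fibroblast miRNAs, all 5 of red cells and all 8 of platelets and endothelium were in the overlapping class. Members of that class could still differ between high-background and other arrays within an age. The log2 contrasts at 4 and 8 weeks were 0.52 and 0.88 for miR-140-5p, and 0.06 and 0.42 for miR-199a-3p. They were 0.66 and -0.19 for miR-199b-5p. At both ages miR-140-3p, miR-214-3p and miR-27b-3p (-0.25 and -0.13) were dimmer on the high-background arrays. The part of the background in the age differences of these members was not tested. The platelet and endothelial list had 5 of 8 lower and a median of -0.08; miR-126a-3p of endothelium differed by 0.0039, less than its SD of 0.66 at 4 weeks (n = 4). In the leukocyte list 3 of 6 were lower and 3 higher. There miR-150-5p of mature lymphocytes stood at -0.08, miR-142a-3p of all blood cells at -0.21, myeloid miR-223-3p at 0.40 and miR-342-3p at 0.28.

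Liver and muscle miRNAs varied more between mice than between ages. The hepatocyte miR-122-5p was 9.99, 8.15, 6.42 and 4.96 at 4 weeks and 7.99, 8.90, 8.14 and 4.51 at 8 weeks. Both ages spanned a wide range, and the means differed by 0.01 ± 1.28 (SE). In striated muscle, miR-133a-3p stood at 0.08 and miR-133b-3p at 0.15, both detected on all arrays. Against them miR-1a-3p stood at -1.72 ± 1.15, with the floor of 0.64 on 8-week replicate 4. Of 19 testis miRNAs on the array, 3 were seen on some array and 0 were tested, and of 12 brain miRNAs 1 was tested (miR-128-3p at -0.03).

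Among families, all 9 tested let-7 miRNAs, which promote differentiation and restrain growth signals, had lower means at 8 weeks. Their median of -0.19 was close to that of all tested miRNAs, -0.13, and 2 of the 9, let-7b-3p (-1.47) and let-7d-3p (-0.61), were 3p arms of the brighter class. Without the marked arrays 3 of 8 were lower. The miR-15 and miR-16 family, which slows the cell cycle, had 4 of 4 lower with a median of -0.41, and the miR-17 clusters, which promote proliferation, 6 of 7 lower with a median of -0.39. Under quantile normalization both medians were above 0, at 0.15 and 0.34, where that of all tested miRNAs was 0.45.

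The miR-26 family had 2 of 2 lower with a median of -1.05, and 0.23 with normexp background correction, and miR-23, miR-24 and miR-27 had 4 of 5 lower with a median of -0.17. Of smaller families, p53-induced miR-34a-5p stood at -0.26 and miR-107-3p at 0.01.

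The miR-29 family, which targets collagens and other matrix genes, had 3 of 3 tested members higher at 8 weeks, with a median of 0.44, and of -0.46 with no scaling between arrays. All 3 were in the dimmer class, and their median was 0.31 without the marked arrays. For miR-29a-3p the values were 7.63, 8.26, 8.07 and 7.78 at 4 weeks and 8.28, 8.19, 7.77 and 9.02 at 8 weeks, with overlap and a difference of 0.38 ± 0.43 (SE). Of the 98 miRNAs of imprinted growth loci on the array, 7 were tested, 5 lower and 2 higher. The 4 lowest (miR-487b-5p at -2.47, miR-485-3p at -2.31, H19-derived miR-675-3p at -1.54 and Igf2-hosted miR-483-3p at -1.26) were all in the brighter class. The list of the miR-466, miR-467 and miR-669 families, many of which lie in an intron of Sfmbt2, had 2 lower and 2 higher of 4 tested. Its lowest, miR-467f at -0.92, maps to chromosome 11.

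**Figure D4:**
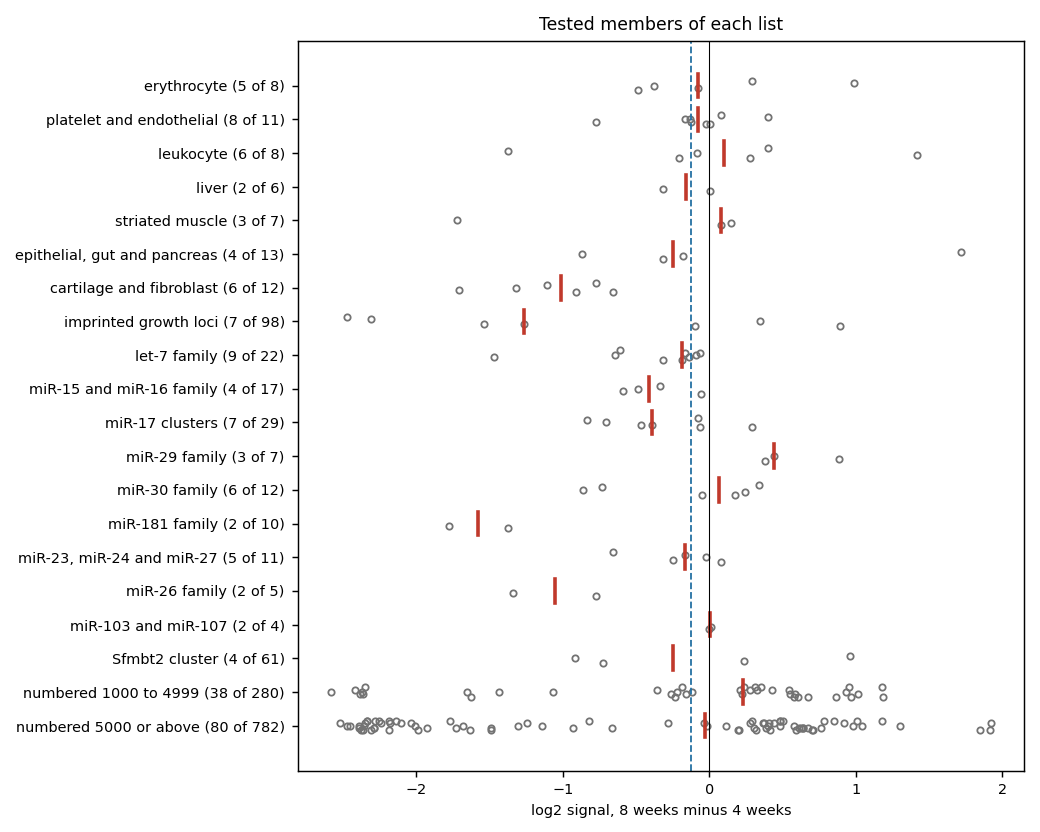
Log2 difference of 8 from 4 weeks (horizontal axis) for each tested member (open points) of the lists with at least 2 tested members, with the list median (red bar), the median of all tested miRNAs at -0.13 (dashed line) and, in brackets, the tested members of those on the array. The cartilage and fibroblast members lie between -1.71 and -0.65, and the miRNAs numbered 5000 or above split into a lower and a higher set.

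The step from 4 to 8 weeks was set against the step from 36 to 58 weeks, the other pair of ages that shares a slide, in a fit over all 16 arrays. Of 285 miRNAs tested there, 0 differed between the steps after correction (0.0%; limma, smallest adjusted p = 0.955), and 5 had an unadjusted p under 0.05 (1.75%). The late step holds 36-week replicate 4, an array marked for evaluation with a negative-control SD of 59.3, the highest of the 16. The 5 were, by p, miR-6931-5p (-0.44 in the early step and 2.42 in the late one, limma unadjusted p = 0.0188), miR-19b-3p (-0.88 and 2.10, unadjusted p = 0.0198), miR-140-5p, miR-215-5p (-0.83 and 1.55, unadjusted p = 0.0352) and miR-181b-5p. Without that array, among 279 tested, 4 had an unadjusted p under 0.05 and miR-6931-5p was the 1 of these 5 among them (limma unadjusted p = 0.0267, adjusted p = 0.493). In the fit with all arrays the median early step of the 285 tested miRNAs was itself -0.72. There miR-199a-3p differed by -1.74 in the early step and -0.05 in the late one (limma unadjusted p = 0.0689 for the difference). The early and late values were -2.05 and 0.49 for miR-140-5p (unadjusted p = 0.0310) and -1.77 and 0.12 for miR-181b-5p (unadjusted p = 0.0434). Values of miR-199b-5p were -1.53 and -1.30, and those of miR-375-3p 1.30 and 1.62, alike in sign in both steps. For miR-486a-5p they were 0.57 and -0.04. Without 36-week replicate 4 the limma unadjusted p for the difference of steps was 0.197 for miR-199a-3p, 0.0755 for miR-140-5p and 0.102 for miR-181b-5p.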

How the data were processed

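Each deposited file holds the scanner output of 1 array. Per the submitters' processing notes, spots were quantified by Agilent Feature Extraction 11.5; the file headers give 11.5.1.1. The background-subtracted spot intensity and the detection call, the other column used, are the authors' deposited values. The number of arrays limits the precision.

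Outlier spots were dropped, and intensities were averaged by probe and then by miRNA. Arrays were brought to 1 common 75th percentile of the 72 miRNAs present on every array of the 2 ages, values under a floor of 1.55 were raised to it, and log2 was taken. The 245 tested miRNAs were fitted with lmFit and eBayes of limma 3.58.1 (R 4.3.3), with Benjamini-Hochberg adjustment at 0.05. For single values per array the test was a 2-sided exact permutation. A detection bound sets the brighter age's mean against, per array of the other age, the higher of the lowest detected signal and the miRNA's own. Scripts were tested on simulated data.

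Names follow a rule: in each direction the 10 smallest p, and at most 4 members per list. The rule also took miRNAs detected on at least 3 arrays of 1 age and on none of the other. Other names, and the sequences printed beyond shared hairpins and detection at 1 age, were chosen after their values were seen. Members and lists were chosen with earlier results of these data known. Alternatives covered scaling, background, filter, floor, probes, variance model, weights, blocks and arrays left out. The lists covered red cells, platelets and endothelium, leukocytes, liver, muscle, brain, epithelium, testis, cartilage and fibroblasts, imprinted loci, and miRNA families.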

Additional observations from a re-analysis of the deposited data

Results flagged for a closer look

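In groups of 4 arrays, a value was singled out where its gap to the nearest of the others divided by the group's range exceeded Dixon's critical value. Of 56 groups examined 4 met this, against 2.8 that chance gives. On 8-week replicate 3 the negative-control spots had an SD of 3.54, against 1.82 to 2.01 on the other 8-week arrays, and miR-5622-3p measured 5.10 there on the log2 scale, against 3.42 to 3.57. On 4-week replicate 1 miR-423-5p lay at the floor of 0.64, against 4.12 to 4.60 on the other 4-week arrays. On 8-week replicate 1 miR-5119 measured 3.65, against 4.61 to 4.76 on the others.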

How the results depend on the processing

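The count that passed was 0 in each of 27 settings, 3 of them chosen after seeing the data (slide row as a block, centring on the median of the tested miRNAs, and leaving out the 3 arrays of highest background), with a smallest adjusted p of 0.166. The median difference of -0.13 was -1.02 with no scaling, 1.89 with the 75th percentile over all miRNAs, -0.72 with all 16 arrays (285 miRNAs) and 0.46 centred on the tested miRNAs, and with 1 array left out it ran from -0.40 to 0.21. The count with an unadjusted p under 0.05, 5 in the fit reported, was 55 with normexp, 41 with array weights, 39 with no scaling, 28 with the 75th percentile over all miRNAs, 17 with no filter, 8 with the brightest probe and 9 without the marked arrays. It was 45 without 4-week replicate 2, 35 without 8-week replicate 3, 9 without 4-week replicate 3, 3 without 4-week replicate 1 or 8-week replicate 2, and 1 without 8-week replicate 1. The ages did not overlap for 39 lower and 0 higher miRNAs with no scaling, and for 1 lower and 48 higher with normexp. With 1 array left out, the difference in detected miRNAs ran from -89.5 to -49.8, in the 75th percentile from -1.02 to -0.79, in negative-control SD from -7.37 to -1.69 and in the miR-451a ratio from -0.72 to -0.18. With the 75th percentile over all miRNAs the differences turned to 1.17 (miR-199b-5p), 1.42 (miR-30b-5p), 1.37 (miR-140-3p and miR-467f), 1.80 (miR-16-5p), 1.02 (miR-483-3p), 0.81 (let-7b-3p), 1.64 (let-7g-5p), 1.69 (miR-15b-5p), 1.29 (miR-20b-5p), 1.57 (miR-20a-5p), 1.55 (miR-30c-5p), 1.63 (miR-27b-3p), 1.56 (miR-466h-3p), 1.22 (miR-3968) and 0.63 (miR-3102-3p.2-3p), beside the median of 1.89. With normexp they turned to 0.25 (miR-215-5p) and 0.18 (miR-26b-5p), and the cause was not tested. Of 1842 values of named miRNAs under other settings, 1629 kept their sign and the rest, beyond these 18, changed it where that value or the one reported lay within 1 SE of 0. Replicate numbers were not treated as pairs in the fit reported. Correlations of deviations between arrays of the same number were -0.48, 0.63, -0.73 and -0.32. The signals that set 3 arrays apart enter these correlations, so they cannot decide whether samples were paired. With the replicate block 0 passed and 3 had an unadjusted p under 0.05. The difference of steps passed 0 in each of 20 settings. Normexp used the median spot signal. Signals near the floor limit the dim miRNAs. Detection bounds with arrays left out kept the scaling and were added after seeing the data.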

Other observations

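Among the tested miRNAs, 71 were detected on exactly 2 of the 4-week arrays and on 3 or 4 of the 8-week arrays, and for all 71 those 2 arrays were 4-week replicates 2 and 3. A further 43 were detected on 3 arrays at 4 weeks and on 1 at 8 weeks, and for all 43 that array was 8-week replicate 3. The labelling and hybridization spike-ins, synthetic RNAs added in fixed amounts, overlapped between the ages. The log10 signals of the labelling spike-ins ran from 3.08 to 3.43 at 4 weeks and from 3.17 to 3.43 at 8 weeks for the first, and from 2.61 to 3.03 and from 2.72 to 3.05 for the second.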
